A study of Mus musculus with 12 samples.

Results

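Mouse astrocytes driven towards pluripotency were examined at day 6, in cells that had switched on a reporter of the neural gene Sox1, and set against every other cell type of the same experiment. A gene was counted as set apart when the mean of the day 6 cells lay at least 1 log2 unit (2-fold) above the highest, or below the lowest, of the 4 other group means. Of 19936 genes measured, 108 were set apart above and 44 below. For genes above, the gap is the day 6 mean minus the highest of the 4 other means, and for genes below it is the day 6 mean minus the lowest, which makes it negative.

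The day 6 group held 3 of the 12 arrays, from Sox1-GFP-positive cells of astrocyte cultures infected with retroviruses carrying Oct4, Klf4, Sox2 and c-Myc and grown in mouse embryonic stem cell medium with 15% serum and 1000 U/ml of the cytokine LIF. The 4 other groups were the starting astrocyte cultures from the cortex of postnatal day 3 mice in 10% serum (3 arrays), neural stem cells (NSCs) from the telencephalon of embryonic day 12.5 to 14.5 embryos in serum-free medium with 20 ng/ml each of bFGF and EGF (2 arrays), established pluripotent cells (iPSCs, for induced pluripotent stem cells) derived from astrocytes (2 arrays), and iPSCs derived from mouse embryonic fibroblasts, or MEFs (2 arrays). The day 6 cells, astrocytes, NSCs and astrocyte iPSCs all carried the Sox1-GFP reporter on 1 allele (Sox1+/-). The MEF iPSCs carried a Nanog-GFP-IRES-Puro reporter instead and came from a single line, iPS-MEF-Ng-20D-17. Both kinds of iPSC were grown on mitomycin-treated MEF feeders with 1500 U/ml LIF, in 15% serum or a serum replacement. Medium, feeders, infection and sorting differed along with the groups, so their parts cannot be told apart from that of cell state, and GFP-negative day 6 cells were not analysed here.

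Forced expression of these 4 transcription factors can turn a somatic cell into a pluripotent one, by way of states in which genes of the starting cell are shut down before the pluripotency network is fully on. Sox1 is an early marker of neuroectoderm and of dividing neural progenitors, while Sox2 is shared by neural stem cells and pluripotent cells. Cells on such routes can also express genes that belong to neither their start nor their end. Comparison with all 4 groups at once picks out genes at an extreme in day 6 cells, whether or not the other groups express them.

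Each array gave 1 background-corrected, normalised (RMA) intensity per probe set, and log2 values are used throughout. Within a group, arrays correlated at 0.992 to 0.996 across all 28853 probe sets, those without a single gene included. Across groups the day 6 arrays correlated at 0.898 to 0.903 with astrocytes, 0.926 to 0.935 with NSCs, 0.956 to 0.962 with astrocyte iPSCs and 0.959 to 0.963 with MEF iPSCs. With limma across all genes, at an adjusted p under 0.05 and a difference of at least 1 log2 unit, 6.75% of genes were called higher and 10.1% lower in day 6 cells than in astrocytes, 2.94% higher and 5.94% lower than in NSCs, 2.82% higher and 3.29% lower than in astrocyte iPSCs, and 2.93% higher and 3.18% lower than in MEF iPSCs. All 4 comparisons share the same 3 day 6 arrays.

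On the probe set used, the gene chosen for sorting moved little. Sox1 had log2 intensities of 8.40, 8.53 and 8.27 in day 6 cells, against 7.97, 8.25 and 8.17 in astrocytes, 8.20 and 8.32 in NSCs, 8.01 and 7.98 in astrocyte iPSCs and 7.98 and 7.99 in MEF iPSCs. Every day 6 value was above every astrocyte and iPSC value, while the NSC values lay within the day 6 range or just under it. The NSC values were themselves close to those of astrocytes and iPSCs, so this probe set hardly separated the groups. The difference from astrocytes was 0.27 ± 0.09 (SE, limma adjusted p = 0.021), and that from NSCs was 0.14 (adjusted p = 0.265), neither reaching 1 log2 unit.

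The 108 genes set apart above made up 0.542% of all genes and the 44 below 0.221%. In all 152 every day 6 array also lay beyond every one of the 9 other arrays, which the choice by these same arrays nearly fixes (over all genes, 5.36% did so upwards and 4.38% downwards). The day 6 mean was simply the highest of the 5 groups in 24.3% of genes and the lowest in 10.0%. By the same rule astrocytes were set apart above in 1045 genes and below in 537, and NSCs above in 361 and below in 103. Each iPSC group was compared with a set that held the other, closely similar iPSC group, and the counts were 69 above and 6 below for astrocyte iPSCs and 25 above and 4 below for MEF iPSCs.

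**Figure D1:**
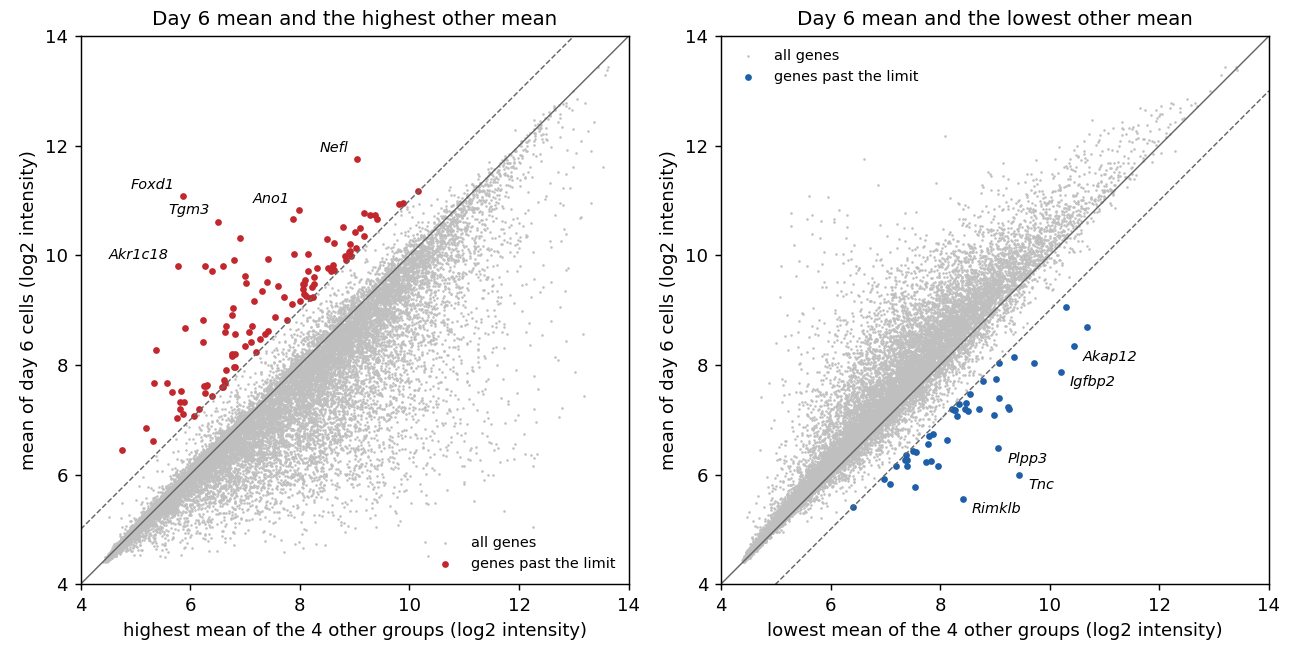
Mean log2 intensity of the day 6 cells (vertical axis) against the highest (left) and the lowest (right) mean of the 4 other groups, 1 point per gene. The solid line marks equality and the dashed line a gap of 1 log2 unit; coloured points are the 108 genes above and the 44 below, and Foxd1 has the largest gap above.

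The genes above had a median gap of 1.40 log2 units, with 27 of the 108 at 2 or more and 8 at 3 or more. Those below had a median gap of -1.24, with 6 of the 44 at 2 or more in size and only Tnc beyond 3. The nearest other group was spread evenly for the genes above, being the astrocytes for 26, NSCs for 27, astrocyte iPSCs for 26 and MEF iPSCs for 29. For 66 of the 108 the 4 other means lay within 1 log2 unit of one another, and for 45 all 4 lay under the level of the median gene. The day 6 mean itself lay under that level (6.87) for 3 of the 108 and for 21 of the 44 below. Klrg2 (gap 1.001), Fam174b (1.014) and Ahsg (1.014) were just inside the limit, and Zic2 (0.992), Slc4a11 (0.992) and Gnptab (0.988) just outside. On the lower side Pwwp3b (-1.012), Setbp1 (-1.033) and Wnk3 (-1.037) were just inside and Nynrin (-0.981), Slc6a9 (-0.981) and Wbp2 (-0.977) just outside.

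The gene with the largest gap was Foxd1, a forkhead transcription factor of the developing kidney stroma, retina and ventral diencephalon. Its log2 intensities were 10.96, 11.22 and 11.07 in day 6 cells, and in the 9 other arrays they ran between 5.58 and 6.16. The day 6 arrays were all high and the others all at a low level, a gap of 5.21 log2 units, or 37.0-fold on the deposited scale. Whether a constant was added to the intensities before deposit is not given in the labels, and after subtraction of 16 units the gap was 5.67, so differences from genes at such low intensity depend on the scale. The 3 other Foxd genes measured, Foxd2, Foxd3 and Foxd4, differed from the highest of the 4 other group means by 0.11, -0.75 and -0.05.

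The 250 bases before the transcript start are shown for 4 genes: Foxd1 and Tgm3 with the largest gaps above, Mal as the leading myelin gene and Tnc with the largest gap below. The sequences are RefSeq's on build GRCm38.p6, written 5′ to 3′ on the strand of the gene, with capitals at matches to any of 12 short motifs on either strand. Foxd1 lies at chr13:98353995-98354244 on the plus strand, with a CCAAT box (CCAAT) at -192 and a GC box (GGGCGG, here on the other strand) at -14, counted from the transcript start to the first base of the match. Tgm3 lies at chr2:130012090-130012339 on the plus strand and holds a TATA box (TATAAA) at -28, CCAAT boxes on the other strand at -137 and -52 and a TEAD motif (GGAATG) at -91. Mal lies at chr2:127656696-127656945 on the minus strand with a TEAD motif at -89. Tnc lies at chr4:64047016-64047265 on the minus strand with a GC box, a TATA box and an octamer (ATGCAAAT) at -167, -126 and -116.
Foxd1: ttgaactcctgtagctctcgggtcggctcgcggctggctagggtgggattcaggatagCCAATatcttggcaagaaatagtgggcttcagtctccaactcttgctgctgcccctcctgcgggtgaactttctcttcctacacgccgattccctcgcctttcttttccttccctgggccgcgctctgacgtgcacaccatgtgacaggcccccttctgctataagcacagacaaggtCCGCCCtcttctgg
Tgm3: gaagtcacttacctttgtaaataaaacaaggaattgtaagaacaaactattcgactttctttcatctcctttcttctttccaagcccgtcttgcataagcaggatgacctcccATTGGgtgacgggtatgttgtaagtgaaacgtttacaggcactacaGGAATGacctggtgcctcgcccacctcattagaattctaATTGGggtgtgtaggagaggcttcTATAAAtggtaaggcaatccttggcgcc
Mal: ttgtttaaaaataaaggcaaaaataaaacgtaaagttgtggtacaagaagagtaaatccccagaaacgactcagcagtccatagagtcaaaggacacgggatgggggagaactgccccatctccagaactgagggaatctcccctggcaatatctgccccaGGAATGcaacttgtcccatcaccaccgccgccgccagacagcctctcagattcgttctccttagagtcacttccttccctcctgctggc
Tnc: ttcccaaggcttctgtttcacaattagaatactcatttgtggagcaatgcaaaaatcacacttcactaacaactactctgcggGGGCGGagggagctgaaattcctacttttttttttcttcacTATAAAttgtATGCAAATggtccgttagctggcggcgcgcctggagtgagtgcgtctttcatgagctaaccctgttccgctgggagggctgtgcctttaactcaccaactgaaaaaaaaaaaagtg

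A promoter was matched for 78 of the 108 genes above, 34 of the 44 below and 15564 genes in all. The GC box stood in 65.4% of promoters of genes above, 76.5% of those below and 46.1% of all. The motif of the TFAP2 family (GCCNNNGGC) stood in 25.6% above, 29.4% below and 17.0% of all, and both motifs are GC-rich, as were the promoters themselves (median GC content 61.4% above, 62.4% below and 56.4% over all). The other shares for genes above, for genes below and for all were 15.4%, 8.8% and 11.4% for the TEAD motif, 9.0%, 14.7% and 11.2% for the TATA box, 32.1%, 35.3% and 35.5% for the CCAAT box, and 2.6%, 2.9% and 1.6% for the octamer. For AP-1 (TGANTCA) they were 2.6%, 2.9% and 6.1%. The forkhead motif (GTAAACA) stood at 2.6%, 0.0% and 2.7%, and the E-box (CACGTG) at 5.1%, 11.8% and 7.0%. Shares for the antioxidant element (TGACNNNGC) were 11.5%, 5.9% and 10.9%. STAT (TTCNNNGAA) had 6.4%, 8.8% and 6.7%, and SOX (ACAATG) had 6.4%, 0.0% and 8.6%. These are matches of letters in a short window and are given with no test.

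**Figure D2:**
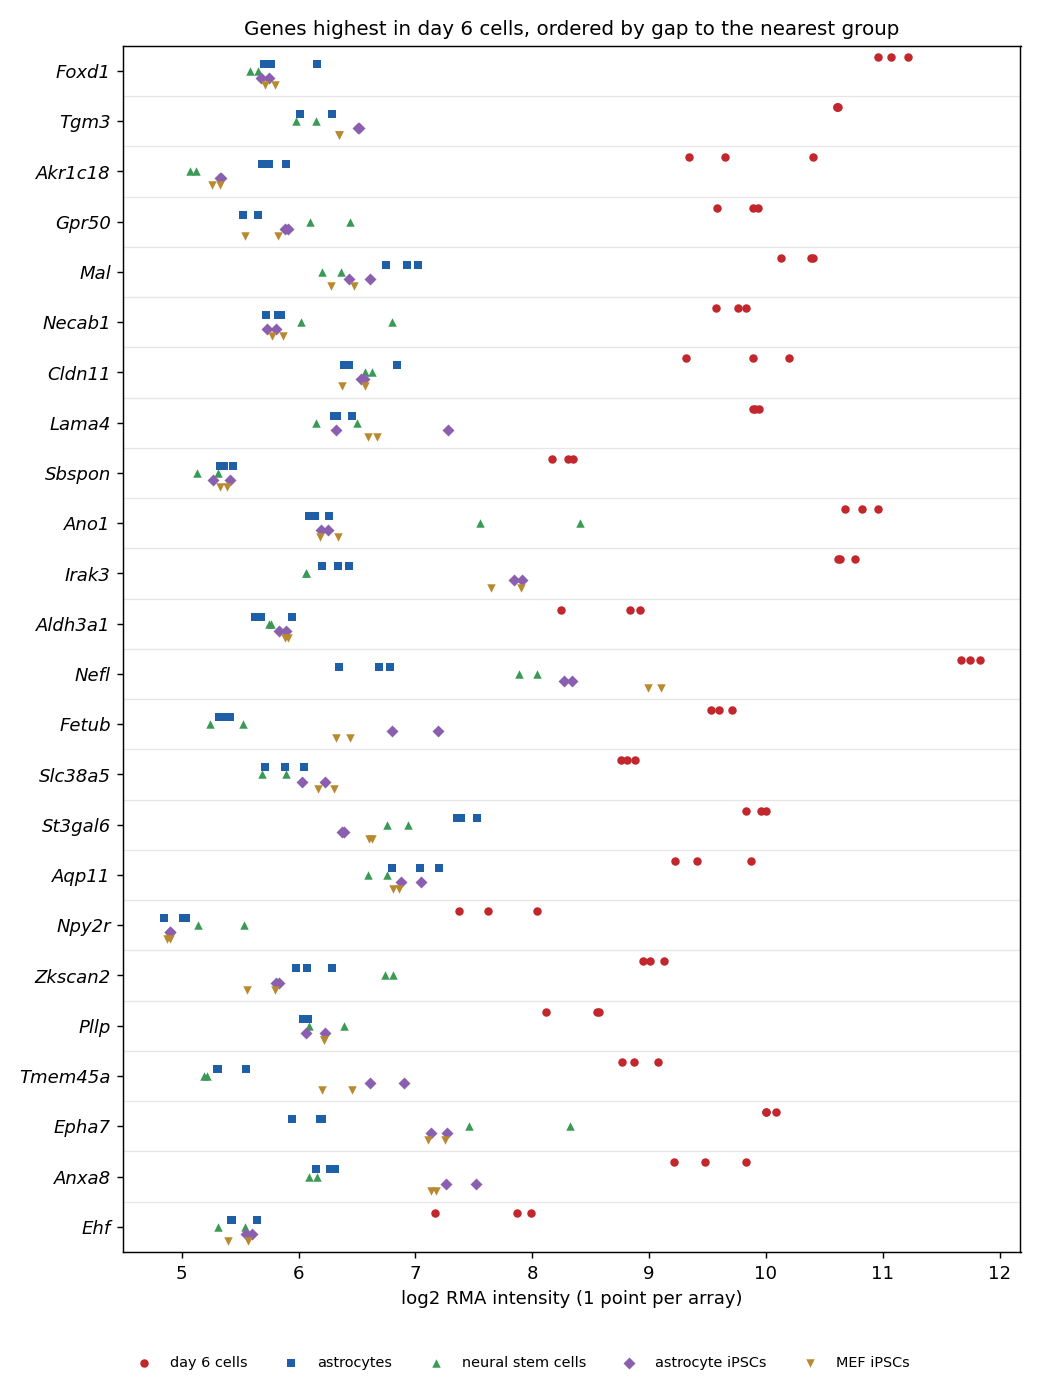
Log2 RMA intensity (horizontal axis) of the 24 genes with the largest gaps above, 1 row per gene and 1 point per array, with the day 6 cells in red and the 4 other groups in their own colours and marks. In each row the 3 day 6 points lie to the right of all 9 others, and for Foxd1 they lie between 10.96 and 11.22.

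Of the genes above, 15, with gaps of 1.02 to 4.10, encode proteins of epithelia and epidermis. Tgm3, a transglutaminase that cross-links proteins of the cornified layer and hair, had 10.61, 10.61 and 10.62 in day 6 cells against 5.98 to 6.52 in the 9 other arrays. The 3 day 6 arrays were almost identical and stood far above the rest, at a gap of 4.10. None of the 6 other transglutaminase genes measured was set apart. Cell adhesion was represented by Itgb4, the β4 integrin chain of hemidesmosomes, with 9.31, 9.13 and 9.05 in day 6 cells against 6.63 to 7.21 elsewhere (gap 2.0). Perp, a desmosome protein that p53 can induce, had 10.92, 10.61 and 10.68 in day 6 cells against 6.50 to 6.95 in astrocytes, 6.12 and 6.47 in NSCs, 8.62 and 8.93 in astrocyte iPSCs and 9.35 and 9.20 in MEF iPSCs. Perp thus stood well above both neural groups and at a smaller gap of 1.46 above the iPSCs, while the plakophilin gene Pkp1 was low in all 4 groups (gap 1.36). The epithelial transcription factors Ehf (gap 2.10) and Tfap2a (1.38) were among the genes above. So were the annexins Anxa8 (2.12) and Anxa1 (1.58), the water and glycerol channel Aqp3 (1.46) and the cornified-envelope gene Sprr2b (1.66), the only one of 8 Sprr2 genes measured. Anxa1 and Aqp3 were not confined to day 6 cells: their nearest groups had means of 9.18 (astrocytes) and 8.31 (astrocyte iPSCs). Ceacam1, a cell adhesion receptor, varied most among the day 6 arrays, at 9.46, 8.41 and 9.82, against 7.64 and 7.78 in MEF iPSCs, the nearest group, and 4.92 to 5.71 in the other arrays.

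Most classical keratinocyte genes were not part of this. Of 27 listed keratinocyte genes measured, 4 were called higher than in astrocytes, 5 than in NSCs, 3 than in astrocyte iPSCs and 2 than in MEF iPSCs, and 1 (Sfn, the 14-3-3σ gene) was called lower than in astrocyte iPSCs. The list's median differences were 0.23, 0.34, 0.18 and 0.12 in the same order, against 0.04, 0.07, 0.03 and 0.02 over all genes. Called shares over all genes were 6.75% higher and 10.1% lower than in astrocytes and 2.94% and 5.94% against NSCs. They were 2.82% and 3.29% against astrocyte iPSCs and 2.93% and 3.18% against MEF iPSCs. Krt5, Krt14 and Trp63, which mark basal keratinocytes, differed from the highest other group mean by -0.08, 0.18 and -0.02, and Krt1, Krt10, Ivl and Lor, which mark differentiating ones, by -0.04, 0.11, -0.02 and 0.01. Summed over the list, intensity was 3742 to 4338 in day 6 cells, 1635 to 1838 in astrocytes, 1595 to 1629 in NSCs, 2406 to 2550 in astrocyte iPSCs and 2669 to 2705 in MEF iPSCs. Without the set-apart members Perp and Pkp1 the sum was 2012 to 2206 in day 6 cells, against 1461 to 1640, 1452 to 1479, 1936 to 1985 and 1987 to 1998 in astrocytes, NSCs, astrocyte iPSCs and MEF iPSCs. General epithelial junction genes were not set apart either: of 26 measured, 8 were called higher and 0 lower than in astrocytes, 11 and 0 against NSCs, 0 and 13 against astrocyte iPSCs, and 1 and 12 against MEF iPSCs. Cdh1, which encodes E-cadherin, differed by 2.41 from astrocytes, 2.50 from NSCs, -1.97 from astrocyte iPSCs and -1.99 from MEF iPSCs.

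There were 4 genes of myelin and MARVEL-domain membrane proteins set apart above, with gaps of 1.41 to 3.41. Mal, a proteolipid of myelin and of apical transport in epithelia, had 10.40, 10.13 and 10.39 in day 6 cells against 6.75 to 7.02 in astrocytes and 6.20 to 6.61 in the 6 other arrays. Cldn11, the tight-junction claudin of myelin and Sertoli cells, had 10.20, 9.89 and 9.32 in day 6 cells against 6.37 to 6.84 elsewhere. Both genes stood more than 3 log2 units above all other groups, and Cldn11 was the only one of 23 claudins set apart. Pllp, the plasmolipin of myelin, and Cmtm7 followed with gaps of 2.17 and 1.41. Of 21 listed myelin and oligodendrocyte genes measured, only Mal and Cldn11 were set apart, both above, as were 0.542% of all genes. Mbp, Mog, Mag, Mobp, Opalin and Sox10 differed from the highest other group mean by 0.20, 0.03, -0.11, -0.02, 0.03 and -0.36. In the list 3 were called higher and 3 lower than in astrocytes, and 2 and 5 against NSCs. Against each iPSC group the numbers were 2 and 1. Called shares over all genes were 6.75% higher and 10.1% lower, 2.94% and 5.94%, 2.82% and 3.29%, and 2.93% and 3.18%. The summed intensity of the list was 3810 to 4261 in day 6 cells, 4798 to 6096 in astrocytes, 10730 to 10891 in NSCs, 2228 to 2419 in astrocyte iPSCs and 2298 to 2418 in MEF iPSCs. Leaving out Mal and Cldn11, it was 1733 to 1854 in day 6 cells, lower than in each of the other arrays (2050 and above). The RNA came from bulk cells, in which fewer cells of a type and less RNA per cell cannot be told apart.

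Of 9 genes of transcription and chromatin above, Foxd1 led by far and the others had gaps of 1.07 to 2.26. Zkscan2, a zinc-finger gene, had 9.01, 8.95 and 9.13 in day 6 cells against 6.81 and 6.74 in NSCs, the nearest group, and 5.56 to 6.29 elsewhere. Tead4, a DNA-binding partner of the Hippo pathway that acts in the trophectoderm, had 9.28, 8.63 and 8.71 in day 6 cells against 6.46 to 7.61 in all other arrays, and was the only one of the 4 Tead genes set apart. Myb, a factor of haematopoietic and other progenitors, had 9.68, 9.62 and 9.91 in day 6 cells and 8.69 and 8.55 in astrocyte iPSCs, its nearest group. Its gap of 1.12 was small beside the distance to astrocytes, which had 6.34 to 6.64. The remaining 5 were the coactivator Ncoa7 (1.54), the forkhead factor Foxo4 (1.26), Tox3 (1.21), the chromatin remodelling subunit Baz1a (1.18) and Sap30 of the Sin3 corepressor (1.07).

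Signalling formed the largest group, with 17 receptors, ligands and signalling proteins at gaps of 1.11 to 3.53. Gpr50, an orphan receptor related to the melatonin receptors, had 9.93, 9.58 and 9.89 in day 6 cells against 6.44 and 6.10 in NSCs and 5.52 to 5.91 elsewhere. Irak3, an inhibitor of Toll-like receptor signalling, had 10.62, 10.63 and 10.76 in day 6 cells against 7.65 to 7.91 in both kinds of iPSC and 6.06 to 6.43 in the neural groups. Neither gene's day 6 values came within 2 log2 units of another array. Npy2r, a neuropeptide Y receptor, had 7.62, 8.04 and 7.37 in day 6 cells against 4.85 to 5.53, and Nt5e, which makes extracellular adenosine (CD73), had 8.85, 8.87 and 8.41 against 5.97 to 6.74. Smaller gaps were seen for Ramp3, a receptor-modifying protein (1.59), the hedgehog-binding inhibitor Hhip (1.40), the natriuretic peptide gene Nppb (1.23), the serotonin receptor Htr1b (1.11) and Gfra2, a coreceptor for neurturin (1.15). Gfra2 was uneven among day 6 arrays, at 9.25, 8.65 and 9.90, and its nearest group was the NSCs with 8.09 and 8.15.

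Guidance molecules divided. Of 29 listed axon guidance and ephrin genes measured, 3 were set apart above (Epha7, Nrp2, Ntn1) and 1 below (Epha4). Among all genes 0.542% were set apart above and 0.221% below. Day 6 cells were called higher in 4 and lower in 11 against astrocytes, higher in 5 and lower in 10 against NSCs, higher in 3 and lower in 3 against astrocyte iPSCs, and higher in 4 and lower in 3 against MEF iPSCs. Over all genes these shares were 6.75% higher and 10.1% lower, 2.94% and 5.94%, 2.82% and 3.29%, and 2.93% and 3.18%. The ephrin receptor gene Epha7 had 10.00, 10.00 and 10.09 in day 6 cells against 7.46 and 8.32 in NSCs and 5.94 to 7.27 elsewhere. The related gene Epha4 had 7.21, 7.06 and 6.93 in day 6 cells against 9.88 to 10.16 in astrocytes and 8.13 to 8.65 in the 6 other arrays. The 2 genes therefore lay at opposite ends, with gaps of 2.14 and -1.25, and no other of the 9 Epha genes was set apart. Ntn1, the secreted guidance cue netrin-1, had 9.37, 9.27 and 9.50 in day 6 cells against 7.72 to 8.23, all 9 other arrays lying close together. Nrp2, a semaphorin coreceptor, had a gap of 1.34, while the related Nrp1 differed by -3.08 from astrocytes, -0.96 from NSCs, -0.87 from astrocyte iPSCs and -0.50 from MEF iPSCs.

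A group of 14 enzymes of redox, sulphur and small-molecule metabolism had gaps of 1.02 to 4.02. Akr1c18, the progesterone-inactivating 20α-hydroxysteroid dehydrogenase of the mouse, had 9.65, 9.34 and 10.40 in day 6 cells against 5.07 to 5.89 in the other arrays. It was the only one of 8 Akr1c genes set apart, at a gap of 4.02. The aldehyde dehydrogenase Aldh3a1, abundant in cornea, had 8.92, 8.25 and 8.84 in day 6 cells against 5.63 to 5.94. Cth, which makes cysteine by transsulphuration, had 10.49, 10.56 and 10.44 in day 6 cells against 8.85 to 9.26 in the iPSCs and 7.12 to 7.99 in the neural groups. The methionine synthase gene Mtr (gap 1.30), the glutathione transferases Gsto1 (1.42) and Gsta3 (1.03) and the mitochondrial superoxide dismutase Sod2 (1.02) were also above all groups. So was the cystine importer Slc7a11 (1.29), which is counted with the channels and transporters and not with these enzymes. Slc7a11 was the only one of 22 measured genes of a stress list (ATF4, NRF2 and heat shock targets) set apart, and 3 of the 22 were called higher and 6 lower against astrocytes, 4 and 0 against NSCs, 1 and 2 against astrocyte iPSCs, and 1 and 6 against MEF iPSCs. All genes together gave 6.75% higher and 10.1% lower, 2.94% and 5.94%, 2.82% and 3.29%, and 2.93% and 3.18%. Hmox1, a haem-degrading NRF2 target, differed by -2.47 from astrocytes, 0.58 from NSCs, -1.80 from astrocyte iPSCs and -1.17 from MEF iPSCs.

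A further 8 channels and transporters had gaps of 1.29 to 2.84. Ano1, a calcium-activated chloride channel, had 10.96, 10.68 and 10.82 in day 6 cells against 8.41 and 7.55 in NSCs, which differed from each other, and 6.09 to 6.34 in the 7 other arrays. Slc38a5, a glutamine transporter, had 8.81, 8.88 and 8.76 in day 6 cells against 5.69 to 6.30. The intracellular aquaporin Aqp11 had 9.41, 9.22 and 9.87 in day 6 cells against 6.59 to 7.20. With Aqp3 it was 1 of 2 set apart among 11 aquaporins, where the share above over all genes was 0.542%. The zinc importer Slc39a8 (1.73), the calcium pump Atp2a3 (1.96) and the proton pump Atp12a (1.70) were further members.

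Another 9 genes act in the cytoskeleton, nuclear lamina or small GTPase control, with gaps of 1.03 to 2.71. Nefl, the light chain of neurofilaments, had 11.75, 11.83 and 11.67 in day 6 cells, against 8.99 to 9.10 in MEF iPSCs, 8.27 and 8.34 in astrocyte iPSCs, 7.89 and 8.04 in NSCs and 6.35 to 6.78 in astrocytes. The other 2 neurofilament genes were not set apart, and of 20 listed neuronal genes measured, 1 was called higher and 3 lower than in astrocytes, 2 and 13 against NSCs, 2 and 1 against astrocyte iPSCs, and 2 and 3 against MEF iPSCs. The shares over all genes were 6.75% higher and 10.1% lower, 2.94% and 5.94%, 2.82% and 3.29%, and 2.93% and 3.18%. Of the 10 Dock genes, which encode exchange factors for Rac and Cdc42, 3 were set apart: Dock5 (1.88), Dock11 (1.16) and Dock9 (1.03). Over all genes 0.542% were set apart above. Adap1, an Arf GTPase-activating protein gene, had a gap of 1.85. Dock5 is the direct neighbour of Nefl in the gene order of GRCm38.p6, as Ahsg is of Fetub, and these were the only pairs of set-apart genes with at most 2 genes between them. Lmna, which encodes lamins A and C, had 9.89, 9.66 and 9.59 in day 6 cells against 8.42 to 8.68 in astrocytes and 7.15 to 8.31 elsewhere.

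Genes of 6 secreted and matrix proteins were above all groups. Lama4, the laminin α4 chain of vessel basement membranes, had 9.89, 9.94 and 9.91 in day 6 cells against 6.15 to 7.28, and was the only one of 5 Lama genes. Sbspon, which encodes a protein with somatomedin B and thrombospondin domains, had 8.31, 8.35 and 8.17 in day 6 cells against 5.13 to 5.44. Fetub had 9.60, 9.53 and 9.71 in day 6 cells against 6.80 and 7.19 in astrocyte iPSCs, its nearest group, and its neighbour Ahsg, which like Fetub encodes a fetuin of plasma, was only just inside the limit (1.01). Sugar-modifying enzymes numbered 4, led by the sialyltransferase St3gal6 with 10.00, 9.96 and 9.83 in day 6 cells against 7.36 to 7.53 in astrocytes and 6.37 to 6.94 elsewhere. Necab1, a neuronal calcium-binding protein gene, had 9.57, 9.76 and 9.83 in day 6 cells against 6.02 and 6.80 in NSCs and 5.72 to 5.87 in the other arrays. Podxl, a sialomucin of podocytes and of stem cell surfaces, followed at a gap of 1.80. Among 13 S100a genes, S100a6 (1.35) and S100a3 (1.23) were above all groups, as were 0.542% of all genes.

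Cdkn2a, whose 2 products p16Ink4a and p19Arf restrain the cell cycle, was the only cell cycle inhibitor set apart above. It had 9.51, 9.49 and 9.63 in day 6 cells against 7.93, 8.23 and 8.11 in astrocytes, 7.19 and 7.16 in NSCs, 7.73 and 7.99 in astrocyte iPSCs and 7.58 and 7.57 in MEF iPSCs. The 3 day 6 arrays were close together and the gap was 1.45, and the 2 products were not told apart here. In a list on Ink4, p53 and senescence with 19 genes measured, Cdkn2a and Perp were set apart above, as were 0.542% of all genes. Of the 19, 2 were called higher and 7 lower than in astrocytes, 4 and 1 against NSCs, 2 and 3 against astrocyte iPSCs, and 4 and 3 against MEF iPSCs. The p15 gene Cdkn2b differed by -1.63 from astrocytes, 0.13 from NSCs, -0.36 from astrocyte iPSCs and -0.12 from MEF iPSCs. Of 28 listed cell cycle genes, 22 were called higher and 2 lower than in astrocytes, 1 and 2 against NSCs, 2 and 1 against astrocyte iPSCs, and 4 and 1 against MEF iPSCs. For both lists the shares over all genes were 6.75% higher and 10.1% lower, 2.94% and 5.94%, 2.82% and 3.29%, and 2.93% and 3.18%.

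The 16 genes above that were given no functional group, and the 5 below, are not described by role. Tmem45a (gap 2.15), Plekhh1 (2.03) and Strip2 (1.84) had the largest gaps among those above, and Fam171b (-2.06) among those below.

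**Figure D3:**
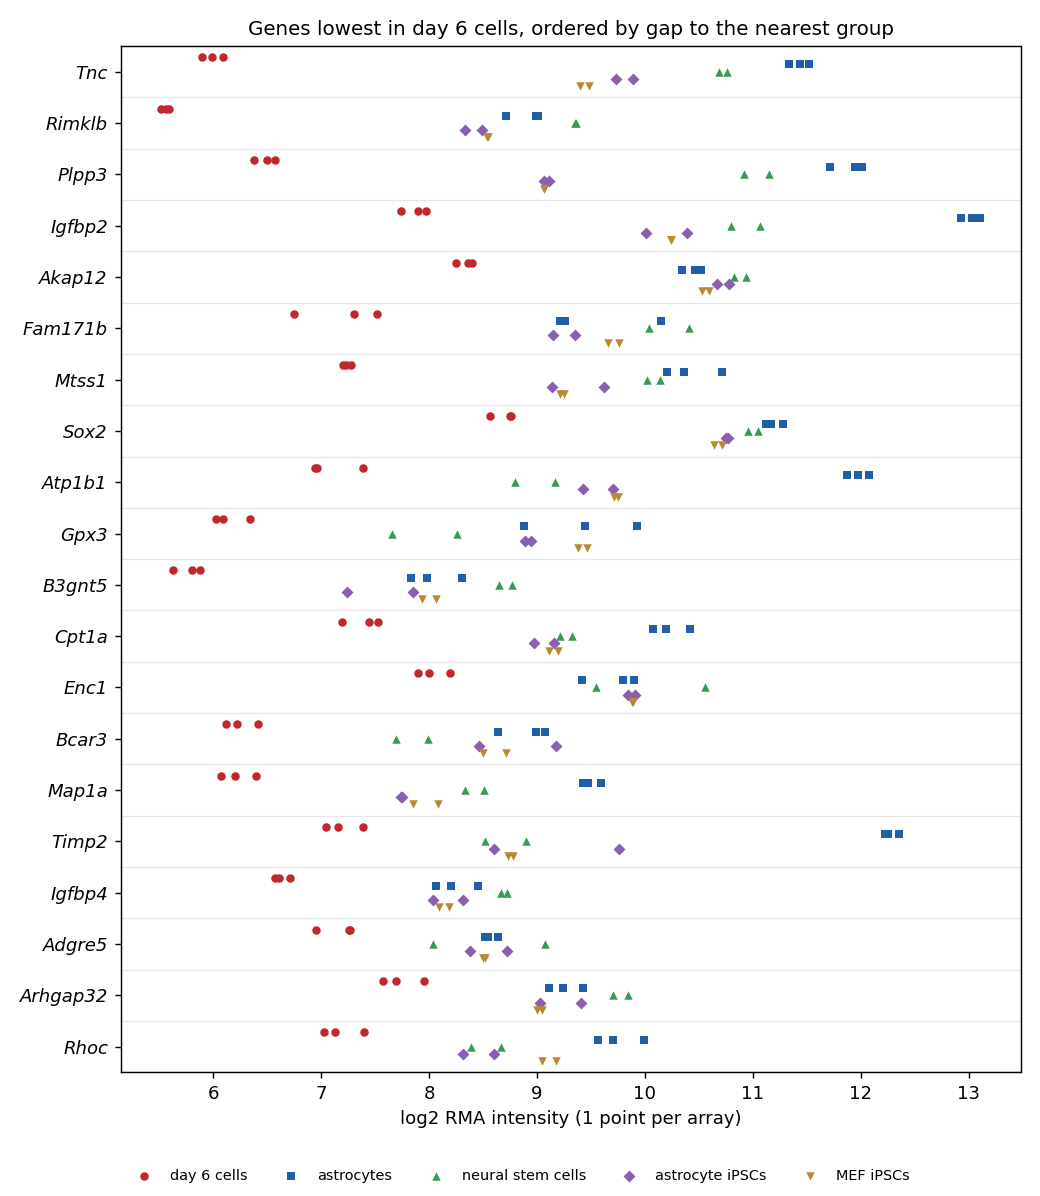
Log2 RMA intensity (horizontal axis) of the 20 genes with the largest gaps below, 1 row per gene and 1 point per array, with colours and marks as in the plot of the genes above. In each row the 3 day 6 points in red lie to the left of all 9 others, and for Tnc they lie between 5.90 and 6.09.

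Of the 44 genes below all groups, 5 encode matrix proteins or their inhibitors and 2 encode insulin-like growth factor binding proteins. Tnc, the tenascin of glia and of stem cell niches, had 5.99, 6.09 and 5.90 in day 6 cells against 11.33 to 11.52 in astrocytes, 10.69 and 10.76 in NSCs, 9.73 and 9.89 in astrocyte iPSCs and 9.40 and 9.48 in MEF iPSCs. The gap was -3.45, and the 3 other tenascin genes measured were not set apart. Igfbp2 had 7.90, 7.74 and 7.97 in day 6 cells against 12.93 to 13.10 in astrocytes, 10.80 and 11.07 in NSCs and 10.01 to 10.39 in the iPSCs. Igfbp4 had 6.71, 6.61 and 6.57 in day 6 cells against 8.04 to 8.72, so that 2 of the 7 Igfbp genes lay below all groups. Of all genes, 0.221% were set apart below. Timp2, an inhibitor of matrix metalloproteinases, had 7.39, 7.16 and 7.04 in day 6 cells against 12.22 to 12.35 in astrocytes and 8.52 to 9.76 elsewhere. The proteoglycan Bgn (-1.23), the collagen gene Col12a1 (-1.26) and Igsf10 (-1.09) completed the matrix group.

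The iPSCs grew on fibroblasts, and a list of 17 fibroblast genes had a summed intensity of 2456 to 2560 in day 6 cells, 10966 to 11641 in astrocytes, 2777 to 3016 in NSCs, 5201 and 8780 in astrocyte iPSCs and 4525 to 4864 in MEF iPSCs. Its part in the low relative values of the matrix genes was not tested. The group nearest to day 6 cells was NSCs for Timp2, Bgn and Col12a1, astrocytes for Igsf10 and MEF iPSCs for Tnc. The astrocyte iPSC array with the higher sum also had the higher Timp2 value, 9.76 against 8.60 in the other. Without that array 48 genes were set apart below, and they included all 44. The iPSC arrays that remained had sums of 4525 to 5201, also above day 6 cells. This removal therefore cannot test the part of feeders.

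In all, 4 genes of transcription were below all groups, and 2 of them were delivered by the retroviruses. Sox2 had 8.76, 8.56 and 8.75 in day 6 cells against 11.12 to 11.28 in astrocytes, 10.95 and 11.05 in NSCs, 10.75 and 10.77 in astrocyte iPSCs and 10.64 and 10.71 in MEF iPSCs. Myc had 7.35, 7.42 and 7.14 in day 6 cells against 8.21 to 8.78 in astrocytes, 10.04 and 10.32 in NSCs, 8.69 and 8.89 in astrocyte iPSCs and 9.37 and 9.50 in MEF iPSCs. The 2 gaps were -1.99 and -1.18, with no overlap of arrays. The other delivered factors lay between the groups: Pou5f1, which encodes Oct4, differed by 1.86 from astrocytes, 2.02 from NSCs and -4.47 from each iPSC group, and Klf4 by -0.75 from astrocytes, 0.76 from NSCs, -0.82 from astrocyte iPSCs and -1.52 from MEF iPSCs. Whether these probe sets read viral transcripts was not tested. Aff3 (-1.15) and Setbp1 (-1.03) were the remaining 2.

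Of 30 listed pluripotency genes, none was set apart above and only Sox2 below. Day 6 cells were called higher in 10 and lower in 3 against astrocytes, higher in 10 and lower in 1 against NSCs, higher in 0 and lower in 25 against astrocyte iPSCs, and higher in 0 and lower in 26 against MEF iPSCs. Among all genes the shares were 6.75% higher and 10.1% lower, 2.94% and 5.94%, 2.82% and 3.29%, and 2.93% and 3.18%. Nr0b1 (Dax1), a nuclear receptor of the pluripotency network, differed by 5.11 from astrocytes, 5.24 from NSCs, 0.38 from astrocyte iPSCs (limma adjusted p = 0.054) and 0.21 from MEF iPSCs (adjusted p = 0.32). Tdgf1, a Nodal coreceptor, differed by 0.50 from astrocytes, 0.61 from NSCs, -5.66 from astrocyte iPSCs and -6.09 from MEF iPSCs. Of 26 listed neural stem and progenitor genes, 3 were set apart below, namely Tnc, Sox2 and the glutamate transporter Slc1a3 (0.221% over all genes). In this list day 6 cells were called higher in 0 and lower in 15 against astrocytes. Against NSCs they were called higher in 0 and lower in 17, and against each iPSC group higher in 7 and lower in 3. Slc1a3 had 6.65, 6.60 and 6.98 in day 6 cells against 12.05 to 12.12 in astrocytes, 11.07 and 11.14 in NSCs and 7.69 to 8.33 in the iPSCs.

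**Figure D4:**
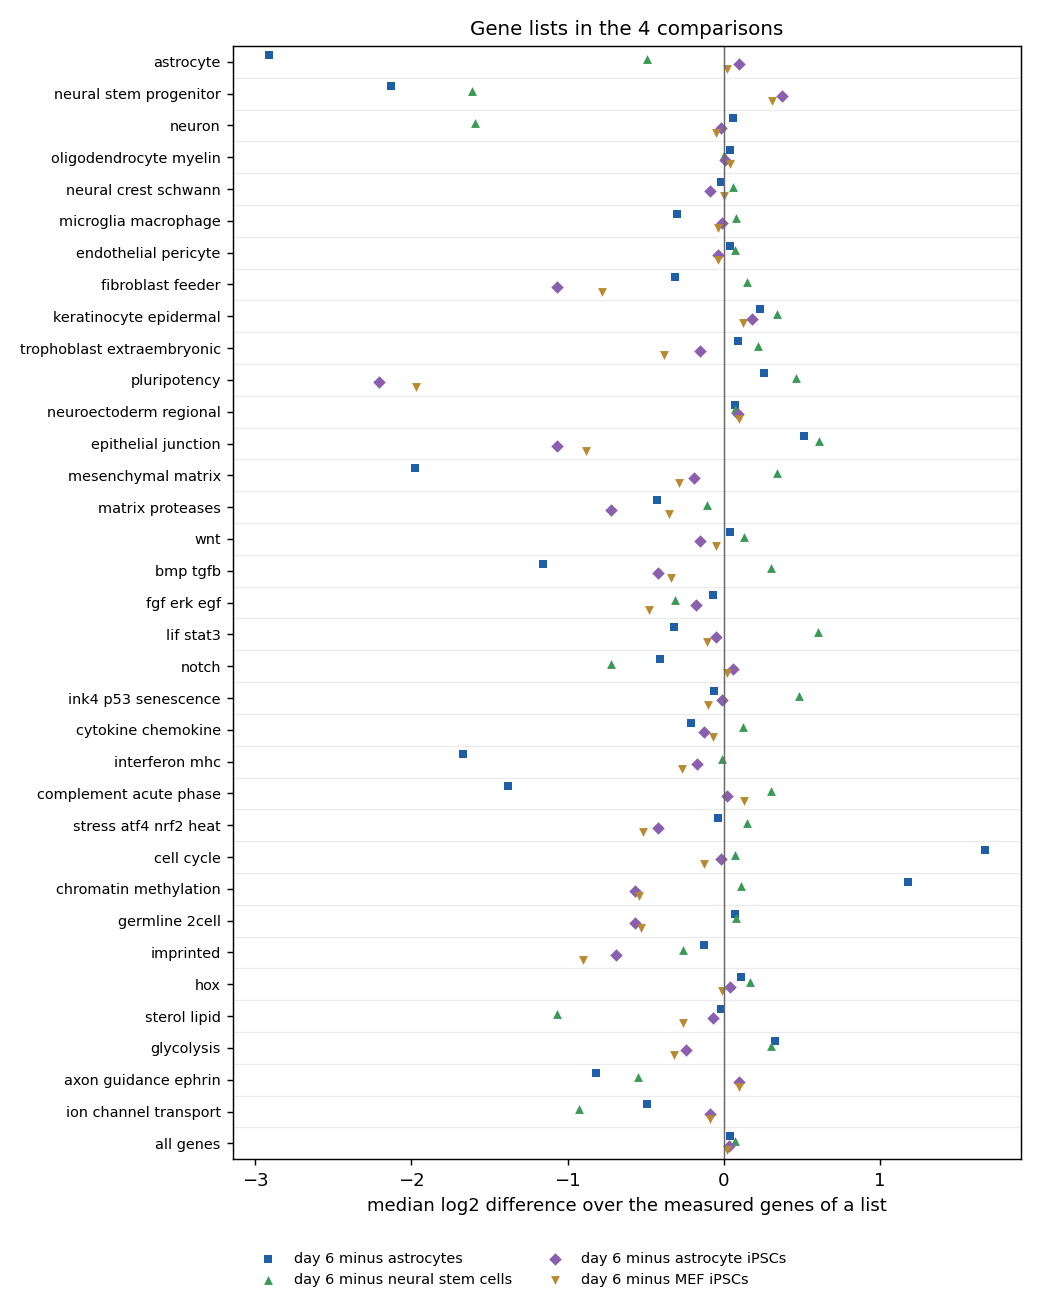
Median log2 difference of day 6 cells from each other group (horizontal axis) over the measured genes of each list with at least 10 of them, 1 row per list and 1 mark per comparison, with all genes in the last row. The pluripotency row lies at -2.21 and -1.97 for the iPSC comparisons, while for all genes the marks lie between 0.02 and 0.07.

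A set of 9 genes of lipid and other metabolism were below all groups, with gaps of -2.85 to -1.06. Rimklb, which ligates glutamate to N-acetylaspartate, had 5.52, 5.59 and 5.56 in day 6 cells against 8.33 to 9.36 in all other arrays. Nat8l, which makes N-acetylaspartate, was by contrast above all groups, with 8.90, 8.76 and 8.82 in day 6 cells against 7.70 and 7.83 in NSCs and 6.20 to 7.37 elsewhere. Plpp3, a lipid phosphate phosphatase, had 6.57, 6.38 and 6.50 in day 6 cells against 11.71 to 12.01 in astrocytes, 10.92 and 11.15 in NSCs and 9.06 to 9.11 in the iPSCs. Cpt1a, which imports long-chain fatty acids into mitochondria, had 7.53, 7.19 and 7.44 in day 6 cells against 8.97 to 10.42. The day 6 arrays were the low ones in each of these 3 genes, and Gpx3, a secreted glutathione peroxidase (gap -1.81), and B3gnt5, which starts lacto-series glycolipids (-1.78), followed. Mest, an imprinted gene expressed from the paternal allele, was the only one of 19 imprinted genes measured to be set apart, with 9.21, 8.83 and 9.12 in day 6 cells against 9.91 to 10.94 in astrocytes, 12.66 and 12.82 in NSCs, 11.15 and 11.34 in astrocyte iPSCs and 10.28 and 10.31 in MEF iPSCs.

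Below all groups were also 7 cytoskeletal and scaffold genes, led by Akap12, an anchor of protein kinase A. Akap12 had 8.40, 8.25 and 8.36 in day 6 cells against 10.34 to 10.94 in the 9 other arrays, whose 4 group means were close together. Mtss1, a membrane-bending actin regulator, had 7.23, 7.20 and 7.28 in day 6 cells against 9.14 to 10.71. Enc1 (-1.68), the microtubule protein gene Map1a (-1.52), Arhgap32 (-1.29), the GTPase gene Rhoc (-1.27) and the Hippo-linked scaffold gene Amot (-1.14) were the others. Of 8 receptors and signalling genes, the adaptor Bcar3 (-1.59), the adhesion receptor Adgre5 (-1.35) and the receptor adaptor Gab1 (-1.22) were members, and Cntfr, the receptor subunit for ciliary neurotrophic factor, had 7.14, 7.14 and 7.23 in day 6 cells against 8.11 and 8.43 in astrocyte iPSCs, the nearest group. Atp1b1, the β1 subunit of the sodium pump, had 7.39, 6.96 and 6.94 in day 6 cells against 11.87 to 12.08 in astrocytes and 8.80 to 9.75 elsewhere.

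In a check added after the data were seen, the choice of genes was repeated on part of the arrays and read in the rest. Both parts came from the same experiment, with the same differences in medium, feeders and reporter between groups. The rest held a single array of NSCs and of each kind of iPSC. The check therefore shows how far arrays of this series agree and is no independent replication. On the replicate 1 array of each group 119 genes were chosen as above, and in the remaining arrays 89 of them (74.8%) again passed the limit and 118 were on the same side. On the same arrays 50 were chosen as below, of which 30 (60.0%) passed again and 49 were on the same side. Chosen on the replicate 2 arrays, 84 of 103 genes above (81.6%) and 33 of 49 below (67.3%) passed again. The median gap in the arrays not used was 1.29 and 1.44 for genes chosen as above and -1.05 and -1.18 for genes chosen as below.

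**Figure D5:**
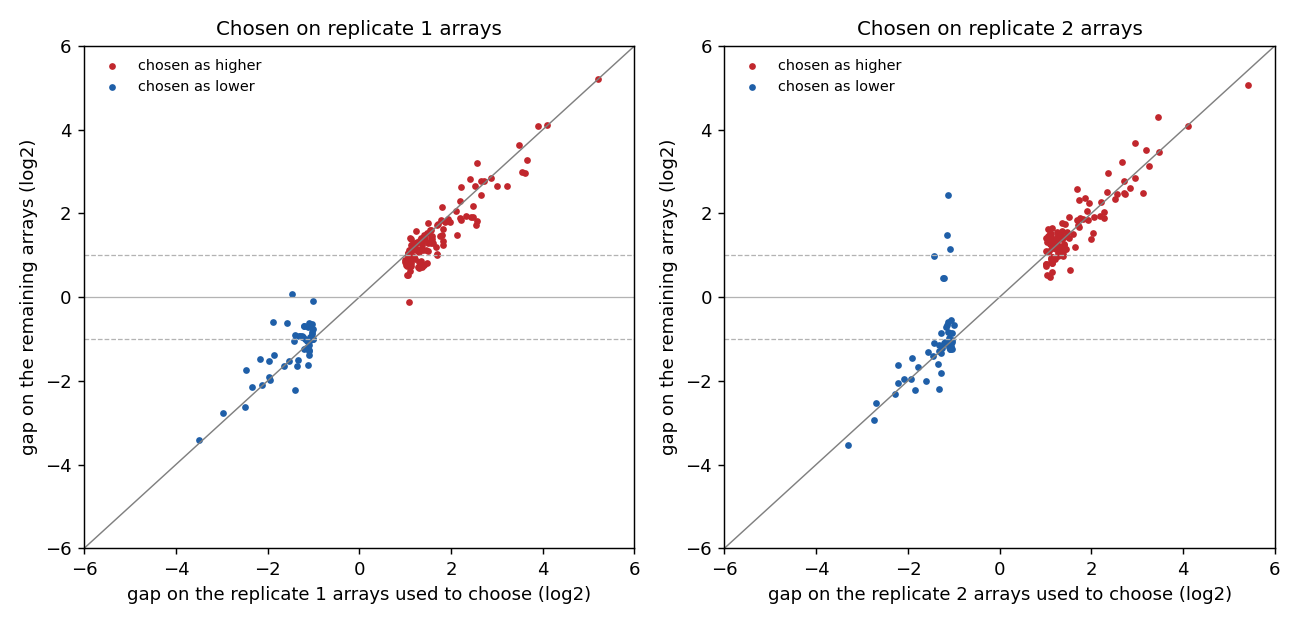
Gap on the arrays not used for choosing (vertical axis, log2) against the gap on the arrays used for choosing (horizontal axis, log2), for genes chosen on the replicate 1 arrays (left) and the replicate 2 arrays (right). Dashed lines mark gaps of 1 and -1; 118 of 119 and 103 of 103 genes chosen as above lie above 0, and 49 of 50 and 43 of 49 chosen as below lie under 0.

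All 6 genes that changed side after choice on the replicate 2 arrays encode small RNAs, namely Rny1, Rny3, Snord33, Snord42a, Snord47 and Snord49b. Snord47, a guide for RNA methylation, had 10.07, 9.15 and 10.28 in day 6 cells, with the replicate 2 array low. Over 56 small nucleolar, Cajal body and Y RNA genes, the median was 8.08, 7.48 and 8.26 in the 3 day 6 arrays, 6.68 to 7.08 in astrocytes, 8.42 and 8.65 in NSCs, 8.87 and 8.99 in astrocyte iPSCs and 8.97 and 9.22 in MEF iPSCs. The replicate 2 array was thus the lowest day 6 array for small RNAs. Among the 108 genes above, the replicate 2 array was lowest for 52, replicate 3 for 42 and replicate 1 for 14. Among the 44 below, the numbers were 23, 12 and 9 in the same order. The share over all genes was not computed, so these counts are not read as a trait of an array. Without the replicate 2 array 108 genes were set apart above, 103 of them shared, and 44 below, 40 of them shared.

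Among the 3 day 6 arrays the genes above had a median SD of 0.15 log2 units and those below 0.14, against 0.08 over all genes. An SD over 0.5 was found for 5 of the 108, namely Ceacam1 (0.73), Sptssb (0.67), Gfra2 (0.63), Anxa1 (0.55) and Akr1c18 (0.55). Anxa1 had 11.03, 11.13 and 10.13 in day 6 cells and Sptssb, a serine palmitoyltransferase subunit, 6.90, 6.78 and 5.68, the third array being the low one in both. Akr1c18 had its highest value in that same array. For 4 of the set-apart genes there were further probe sets that could be compared: the gaps of Ccdc141 were 1.17 and, on 4 others, 1.33 to 1.56, those of Igsf10 -1.09, -1.0 and -1.14, those of Loxl4 1.03 and 0.84, and those of Eef2k 1.20 and 0.55.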

How the data were processed

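Total RNA of 12 samples was amplified, labelled and hybridised to Affymetrix Mouse Gene 1.0 ST arrays, which carry 1 colour. The deposited values are linear intensities per probe set, made by the authors with RMA (background correction, quantile normalisation and summary of probes) per the submitters' processing notes, with a software version not given in the sources used here. They ran from 20.2 to 15436 with array medians of 97.9 to 104.9. Precision is limited by the 2 or 3 arrays of a group. The series' text calls the replicates biological without saying whether they were separate cultures or animals.

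Values were log2-transformed. GEO's platform annotation, with names updated through RefSeq, gave 1 gene to 21789 of 28853 probe sets, several to 1621 and none to 5443. For the 1001 of 19936 genes with several probe sets the one with the highest mean was used. Limma 3.58.1 (R 4.3.3) fitted 1 mean per group over all 12 arrays, with Benjamini-Hochberg adjustment over all genes, and was tested on simulated data. A gene was called at an adjusted p under 0.05 and a difference of at least 1 log2 unit. Genes set apart carry no p-value, since the 4 comparisons chose them.

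The members, the 35 gene lists (729 of 780 entries measured) and the tests were chosen with earlier results of these data known. Set-apart genes were put into functional groups by hand after their values were seen. Named in the text are the first 30 genes above and 20 below by gap, further set-apart genes as examples of a functional group, list members set apart or with large differences, Sox1, the delivered factors, genes next to the limit, and genes that changed side between arrays. Alternatives were another limit, another fit, another choice of probe set, a filter on dim genes, cyclic loess, centring, subtraction of 16 intensity units, a block for the replicate number, and the removal of single arrays.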

Additional observations from a re-analysis of the deposited data

Results flagged for a closer look

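Probe sets that the annotation ties to several genes or to none were outside all comparisons, and some of them also lay at least 1 log2 unit beyond all 4 other groups in day 6 cells. Of 1621 probe sets with several genes, 9 (0.555%) were above and 1 (0.0617%) below, with largest gaps of 2.97 and -1.10. Of 5443 probe sets with no gene, 6 (0.11%) were above and 2 (0.0367%) below, with largest gaps of 3.73 and -1.94. They were not named.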

How the results depend on the processing

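Under other probe-set choices, filters and scalings, 103 to 131 genes were set apart above and 43 to 58 below. The highest counts, 131 and 58, came from subtracting 16 intensity units, and they included all 108 and all 44. A limit of 1.5 log2 units left 44 above and 17 below, by construction. Requiring that arrays do not overlap, or an adjusted p under 0.05 in each comparison, removed no gene, which the choice by the same arrays nearly fixes. Leaving out 1 array at a time gave 103 to 116 above, 102 to 108 of them shared, and 41 to 49 below, 40 to 44 of them shared. Limma's counts of called genes then ran from 3327 to 3409 against astrocytes, 1683 to 1897 against NSCs, 1190 to 1322 against astrocyte iPSCs and 1206 to 1250 against MEF iPSCs; where 1 array was left in a group, it was assumed to vary like the others. With no limit on the size of the difference the counts were 9755, 7655, 5896 and 5931 in the same order, against 3360, 1771, 1218 and 1219 with it.

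The replicate numbers were not treated as pairing the samples, since the labels do not say that a number marks a shared culture or day. Same-numbered pairs of arrays correlated at -0.097 to 0.41 in their deviations from the group mean. The median was 0.11 over 21 pairs and 0.165 over the 9 pairs with a day 6 array. The replicate 1 arrays of astrocytes, day 6 cells and MEF iPSCs correlated at 0.396 to 0.41, and whether they share a batch was not tested. Pairs with different numbers had a median of -0.076 (36 pairs), but centring within groups pushes these below 0. With the replicate block the counts were 3364, 1797, 1247 and 1227, and 108 genes were called higher and 41 lower in all 4 comparisons, against 108 and 44 without it. Of 2583 gaps of single genes recomputed over 17 settings per gene, 0 changed sign and 136 moved by over 1 SD of the day 6 arrays. Subtracting 16 units moved the median of all genes to 0.115 above NSCs, and every other scaling left it within 0.08 of 0 in all 4 comparisons.

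The deposited values never fell below 20.2, and dim genes cannot be ordered. Groups differ in medium, feeders and reporter, and no day 6 cells without GFP were analysed here. The functional groups rest on annotation and gave no test.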
